A study of Mus musculus with 9 samples.

Results

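Interferon-stimulated genes are the genes whose transcripts rise when a cell senses interferon. The 44 genes described here were chosen by symbol, each had 1 row among the 25781 genes of the liver expression table, and all 44 passed the filter on low values. They comprise 34 genes of the type I interferon kind, called type I-like below, and 10 GTPases that are induced most strongly by interferon gamma (Gbp2 to Gbp7, Iigp1, Igtp, Irgm1 and Irgm2). RNA was sequenced from the livers of Swiss mice aged 10 to 12 weeks, in 3 groups of 3 libraries. The groups were an untreated control, a β-CYP group dosed at 40 mg/kg (the submitters' injury group), and a group that received that β-CYP dose plus 50 µg/kg of Na2SeO3, sodium selenite (their repair group, called the selenite group below). No group received selenite alone, and neither the full name of β-CYP nor the time from dosing to sampling is stated in the labels. Whether the 3 libraries of each group are 3 animals is not stated either, so p-values reflect library-to-library spread that could be technical.

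Type I interferons signal through the receptor chains IFNAR1 and IFNAR2 to the kinases JAK1 and TYK2, and a complex that holds STAT2 and IRF9 binds the interferon-stimulated response element in promoters. Interferon gamma, made mainly by T cells and natural killer cells, signals through IFNGR1, IFNGR2, JAK1 and JAK2, and its promoter element is the gamma-activated site. In liver, hepatocytes and resident macrophages respond to both, making antiviral proteins in the one case and, in the other, GTPases that attack the vacuoles of intracellular microbes.

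Depth was 28630269 to 36029560 reads per library, and levels are given as scaled counts, that is, reads divided by a size factor for each library. Scaled counts are not corrected for gene length, so they compare a gene between libraries and not with other genes. Hepatocyte markers (Alb, Ttr, Apoa1 and others), checked against the liver label, held 9.50% to 10.6% of reads in the control libraries. Their share was 11.9% to 12.3% with β-CYP and 11.2% to 11.3% with selenite. Control replicate 2 stood apart in that the transcript AY036118 took 5.04% of its reads against 0.139% to 0.148% in the other 2 control libraries, and the effect of leaving that library out is given with the calls it changed. Log2 changes are differences of group means of log2(scaled count + 1), with a standard error (SE), and understate the change of low genes. A gene was called higher or lower when its adjusted p from limma (Benjamini-Hochberg over 20145 genes tested, n = 3 libraries a group) was under 0.05. All of these are whole-tissue values, in which fewer cells of a type and less RNA per cell cannot be told apart.

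With β-CYP alone, 6 of the 34 type I-like genes rose and 1 fell, and 4 of the 10 GTPases rose and 1 fell. Among all genes tested, 7.72% were called higher and 8.58% lower in this comparison. The median log2 change was 0.22 over the type I-like genes, 0.12 over the GTPases and -0.0013 over all genes tested. No member changed by 2-fold or more with β-CYP alone. Without control replicate 3 or β-CYP replicate 3 the GTPases higher numbered 2.

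With selenite added, 10 of the 34 type I-like genes were lower than with β-CYP alone and 1 was higher, whereas 7 of the 10 GTPases were higher and 0 lower. The background in this comparison was 11.6% of genes called higher and 12.3% lower. The median log2 change was -0.15 over the type I-like genes and 0.59 over the GTPases, against 0.017 over all genes tested. In 8 of the 10 GTPases all 3 selenite libraries lay above all 3 β-CYP libraries, and in 0 all lay below. Among the 34 type I-like genes the same counts were 4 above and 14 below. The share of all genes without overlap was not counted, so these counts cannot be read as particular to the members. Only Gbp4 and Gbp5 among the 44 members changed by 2-fold or more, both upward. At an unadjusted limma p under 0.05, 9 GTPases were higher and 0 lower, and limma with voom weights on recovered reads called 7 higher and 0 lower. Of all 20145 genes tested, voom weights called 2430 higher and 2494 lower. The share of all genes at the unadjusted cut was not counted.

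Against untreated controls, the selenite group had 6 type I-like genes higher and 9 lower, and 9 of 10 GTPases higher and 0 lower (9 and 0 also at an unadjusted limma p under 0.05 and with voom weights). The background was 14.4% higher and 14.5% lower. With voom weights it was 2920 higher and 2920 lower of 20145 genes, and at the unadjusted cut it was not counted. Median log2 changes were 0.08 for the type I-like genes, 0.61 for the GTPases and 0.027 for all genes tested, and the 4 members past 2-fold were Gbp2, Gbp3, Gbp4 and Gbp5. The 3 comparisons share libraries pairwise, so their values for a gene stand side by side here and are not independent of each other. When libraries were instead scaled to equal totals, the median of all genes moved to 0.14 for selenite against β-CYP and to 0.16 for selenite against control. The split of all called genes then moved from 2337 higher and 2468 lower to 3238 and 1334 in the former, and from 2908 and 2915 to 3979 and 1764 in the latter. Under that scaling the type I-like genes stood at 2 higher and 7 lower for selenite against β-CYP and at 9 higher and 4 lower for selenite against control, while 9 and all 10 GTPases were higher. Where this scaling ended a call printed below, that is stated with the gene. Other settings of the analysis also ended some calls, and not all of those are named with the gene.

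**Figure D1:**
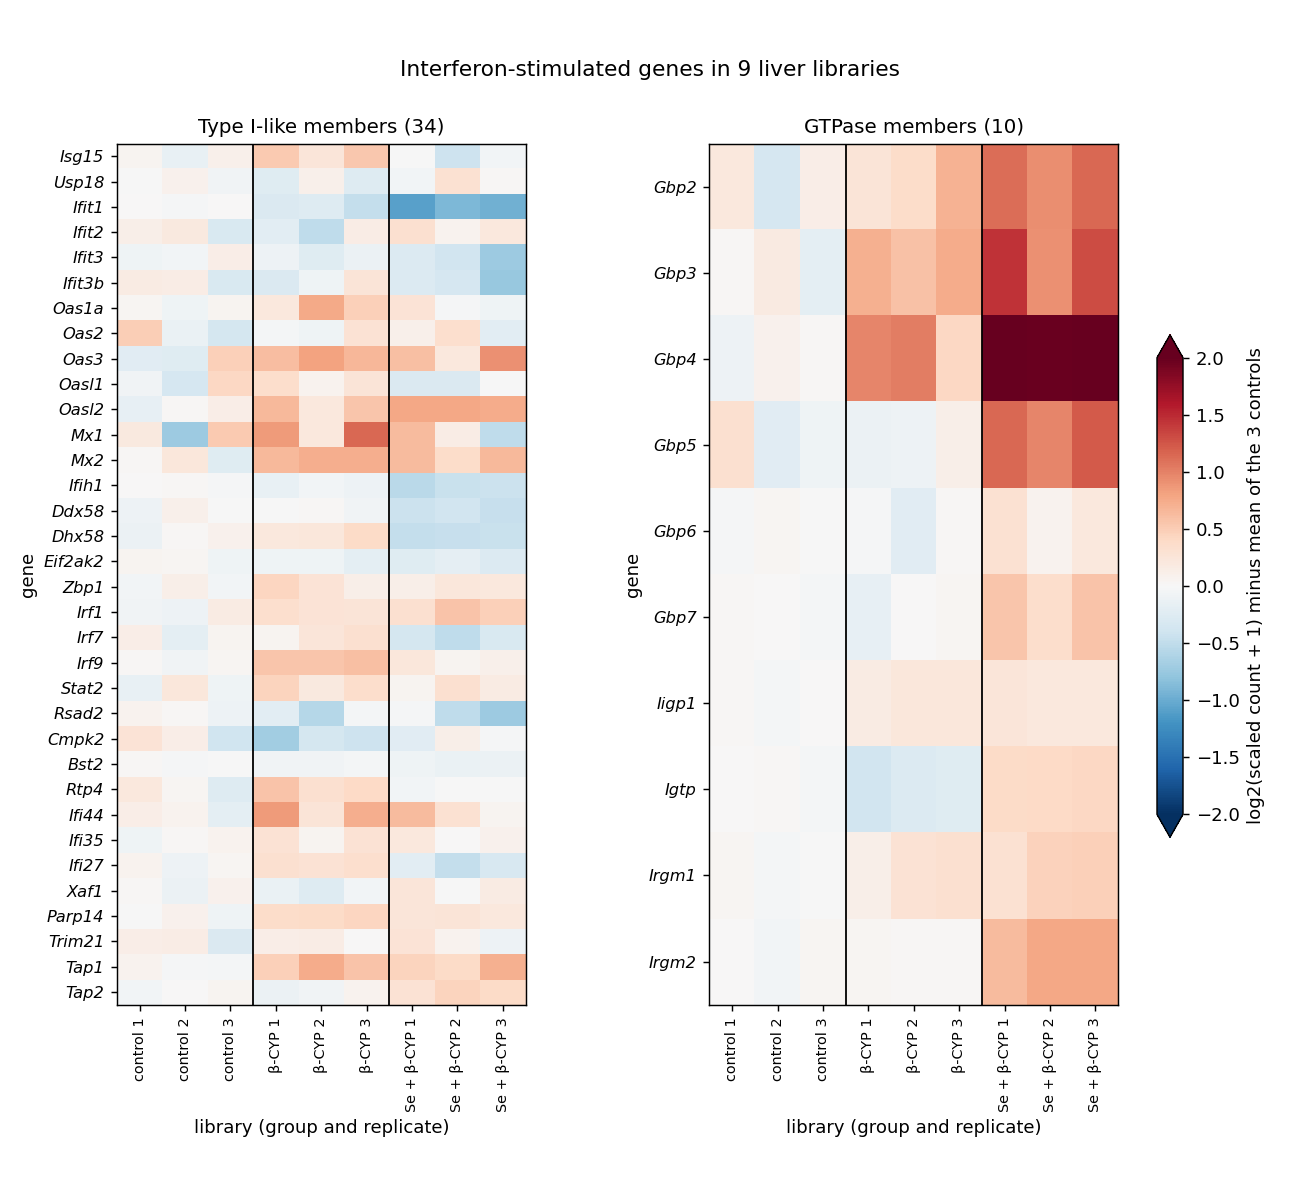
Heat map of the 44 members (rows, grouped by class and role) in the 9 libraries (columns, 3 per group), with colour for log2(scaled count + 1) minus the mean of the 3 control libraries. The guanylate-binding proteins and Irgm2 are highest in the 3 selenite columns, while Ifit1, Ifih1, Ddx58 and Dhx58 are lowest there.

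ISG15 is a ubiquitin-like protein that is attached to other proteins, and USP18 removes it and restrains the type I receptor. The IFIT proteins bind foreign RNA ends. The promoter windows of Isg15 and Ifit1 are shown because each holds several copies of the response element core, GAAANNGAAA on either strand, in capitals (GRCm38.p6, sequences from RefSeq, each on the gene's own strand).
Isg15, chr4:156200860-156200911, minus strand: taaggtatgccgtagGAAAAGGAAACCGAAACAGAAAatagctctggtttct
Ifit1, chr19:34640770-34640828, plus strand: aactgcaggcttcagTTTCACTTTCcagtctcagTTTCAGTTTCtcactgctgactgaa
Isg15 stood at 204, 177 and 211 scaled counts in the controls, 285, 234 and 288 with β-CYP, and 197, 148 and 191 with selenite. The β-CYP libraries were the high ones and overlapped neither other group. Its change with β-CYP did not pass (log2 change 0.44, SE 0.14, adjusted p = 0.0663), and it was lower with selenite than with β-CYP alone (-0.59, SE 0.14, adjusted p = 0.0132). That call was lost without β-CYP replicate 3 (-0.54) and with equal totals (-0.47). Ifit1 stood at 352, 342 and 351 scaled counts in controls, 286, 290.0 and 249.6 with β-CYP, and 164, 186 and 179 with selenite. Its 3 groups did not overlap, and it fell in every comparison, by 0.34 on the log2 scale with β-CYP (SE 0.09, adjusted p = 0.0318), by 0.64 from β-CYP to selenite (SE 0.09, adjusted p = 0.000739) and by 0.98 from control to selenite (SE 0.09, adjusted p = 3.16e-05). The first of these calls was lost without any 1 control library or without β-CYP replicate 1 or 3 (-0.37 to -0.27), and with equal totals. Ifit1 and Isg15 thus differed in direction under β-CYP, where the Isg15 libraries were above control and the Ifit1 libraries below. Ifit3, a partner of IFIT1, was at 367, 375 and 426 in controls, 364, 329.8 and 358 with β-CYP and 322, 297 and 236 with selenite, and was called only for selenite against control (-0.46, SE 0.12, adjusted p = 0.0172). That call was lost without control replicate 3 (-0.39) and with equal totals (-0.32). Usp18, Ifit2 and Ifit3b passed in no comparison, with log2 changes between -0.45 and 0.39. Ifit3 and Ifit3b share sequence (51.2% of the 50-base words of Ifit3 transcripts occur in other genes), so reads could be split between them.

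RIG-I (Ddx58) and MDA5 (Ifih1) sense viral RNA in the cytosol, LGP2 (Dhx58) modulates them, PKR (Eif2ak2) halts translation on double-stranded RNA, and ZBP1 senses Z-form nucleic acids. The 3 RNA helicases were lowest in the selenite group. Ifih1 was at 1315, 1327 and 1282 scaled counts in controls, 1176, 1263 and 1218 with β-CYP, and 904, 965 and 972 with selenite. Ddx58 was at 864, 986 and 920.0, then 918, 937 and 882, then 684, 709 and 667 in the same order of groups. Dhx58 was at 304, 332 and 349.7, then 379, 382 and 427, then 235, 239 and 239.6. In all 3 genes each selenite library was below all 6 others. The log2 changes from β-CYP to selenite were -0.36 for Ifih1 (SE 0.05, adjusted p = 0.00044), -0.41 for Ddx58 (SE 0.06, adjusted p = 0.000879) and -0.73 for Dhx58 (SE 0.08, adjusted p = 0.000165). Against control they were -0.47 (adjusted p = 6.47e-05), -0.43 (adjusted p = 0.000551) and -0.46 (adjusted p = 0.00249). None of the 3 passed with β-CYP alone, where Dhx58 came nearest (0.27, adjusted p = 0.0601). Eif2ak2 fell only against control (-0.23, SE 0.06, adjusted p = 0.0184), a call lost without control replicate 1 or 2 or selenite replicate 1 or 3 (-0.23 to -0.21) and with equal totals (-0.10). Zbp1 passed in no comparison (215, 243 and 217 in controls, 302, 272 and 243 with β-CYP, 243, 263 and 262 with selenite).

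Of the transcription factors, IRF9 is the DNA-binding partner of STAT2, IRF7 amplifies type I interferon production, and IRF1 acts in both pathways. Irf9 was at 826, 772 and 831 scaled counts in controls, 1184, 1189.5 and 1234 with β-CYP, and 946, 837 and 872 with selenite. All β-CYP libraries were above all others. Irf9 thus rose with β-CYP (0.57, SE 0.06, adjusted p = 0.000117), was lower with selenite than with β-CYP alone (-0.44, SE 0.06, adjusted p = 0.000421) and did not pass against control (0.13, adjusted p = 0.144). Irf7 was at 687, 552 and 656, then 654, 744 and 784, then 493, 442 and 508, with each selenite library below all others. It passed for selenite against β-CYP (-0.59, SE 0.10, adjusted p = 0.00217) and against control (-0.39, SE 0.10, adjusted p = 0.018), the latter lost without control replicate 1 or 3 or selenite replicate 2 (-0.36 to -0.32) and with equal totals (-0.25). Irf1 moved differently, at 891, 874 and 1043 in controls, 1172, 1132 and 1116 with β-CYP, and 1170.2, 1381 and 1304 with selenite. It rose against control both with β-CYP (0.29, SE 0.08, adjusted p = 0.0383) and with selenite (0.46, SE 0.08, adjusted p = 0.00206), and was not called between those groups (0.17, adjusted p = 0.177). The β-CYP call was lost without control replicate 1 or 2, any 1 β-CYP library or selenite replicate 3 (0.24 to 0.30), and with equal totals or no intensity trend. No minimum level, the fit of the 2 groups only and a replicate block also ended it. Stat2 passed in no comparison, with the largest change in β-CYP (0.33, adjusted p = 0.0696). That change was called without control replicate 2 (0.45, adjusted p = 0.0175), which at 1742 scaled counts was the highest control beside 1345 and 1408, and with equal totals, as was its change from control to selenite with equal totals.

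The 2'-5'-oligoadenylate synthetases make the messenger that switches on RNase L, and the Mx proteins are dynamin-like GTPases that block viral nucleocapsids. All 5 genes listed for the synthetase family, by sequence kinship and not by enzyme activity, had positive log2 changes with β-CYP, from 0.06 to 0.70. Of all 20145 genes tested, 9857 had a positive change there, and the Oas2 change reached -0.12 in an alternative setting. By limma 0 of the 5 were called, with or without voom weights, although 3 had an unadjusted p under 0.05. The share of all genes at that unadjusted cut was not counted. Oasl2 was at 90.0, 103 and 111 in controls, 158, 116 and 149 with β-CYP, and 173, 173 and 169.6 with selenite. It passed only for selenite against control (0.76, SE 0.14, adjusted p = 0.00287), where the groups did not overlap. Oas1a, Oas2, Oas3 and Oasl1 passed in no comparison, and Oas1a shares 57.6% of its 50-base words with other genes. Mx2 was at 190.2, 220.4 and 158 in controls, 293, 312 and 309.6 with β-CYP, and 292, 242 and 293 with selenite. It rose against control with β-CYP (0.70, SE 0.13, adjusted p = 0.00539) and with selenite (0.55, SE 0.13, adjusted p = 0.0117). The change between its 2 dosed groups did not pass (-0.15, adjusted p = 0.484), although the selenite libraries all lay below the β-CYP libraries, the nearest by under 1 scaled count. Mx1 was low in every library (8.05 to 32.4 scaled counts) and passed in no comparison.

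Among the other antiviral effectors, the clearest was Ifi27, a small mitochondrial and nuclear-envelope protein. Ifi27 was at 1935, 1714 and 1903 in controls, 2317, 2261 and 2321 with β-CYP, and 1590.0, 1327 and 1484 with selenite, with no overlap between groups. It was up with β-CYP (0.31, SE 0.07, adjusted p = 0.0124), fell from β-CYP to selenite (-0.65, SE 0.07, adjusted p = 9.54e-05) and was lower with selenite than in controls (-0.34, SE 0.07, adjusted p = 0.00503). With equal totals the first and last of these calls were lost, the last with a log2 change of -0.20. Parp14, a mono-ADP-ribosyltransferase, was at 1368, 1465 and 1303, then 1775, 1788 and 1851, then 1624, 1646 and 1597. It rose with β-CYP (0.39, SE 0.05, adjusted p = 0.000418) and stayed above control with selenite (0.24, SE 0.05, adjusted p = 0.00499). Its fall between the dosed groups (-0.15, adjusted p = 0.0473) was lost without control replicate 1 or any 1 of the 6 dosed libraries (-0.17 to -0.14), and under 5 other settings, equal totals among them. Rtp4, a chaperone of receptor transport, was lower with selenite than with β-CYP alone (-0.45, SE 0.14, adjusted p = 0.0401), at 138, 142 and 143 against 213, 179 and 189. That call was lost without control replicate 2 or any 1 of those 6 libraries (-0.51 to -0.38) and with equal totals. Bst2, which tethers budding viruses, was lower with selenite than in controls by a small amount (-0.12, SE 0.03, adjusted p = 0.0131), a difference that turned to 0.02 with equal totals. Rsad2 and Cmpk2, neighbouring genes whose enzymes make a chain-terminating nucleotide, passed in no comparison, nor did Ifi44, Ifi35, Xaf1 or Trim21. The largest changes of these 6 were 0.61 for Ifi44 with β-CYP (adjusted p = 0.0766) and -0.49 for Cmpk2 with β-CYP (adjusted p = 0.134).

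TAP1 and TAP2 form the transporter that loads peptides onto class I major histocompatibility molecules, and their genes were called in different comparisons. Tap1 was at 477, 444 and 441 scaled counts in controls, 628, 756 and 673 with β-CYP, and 617, 592 and 744 with selenite. It rose against control in both dosed groups (0.59, SE 0.10, adjusted p = 0.00274 and 0.51, SE 0.10, adjusted p = 0.00353). Tap2 was at 879, 918 and 944, then 845, 866 and 956, then 1112, 1249.8 and 1196. It rose only with selenite, by 0.42 against β-CYP (SE 0.07, adjusted p = 0.00126) and by 0.37 against control (SE 0.07, adjusted p = 0.00192), and was the single type I-like member called higher for selenite against β-CYP.

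**Figure D2:**
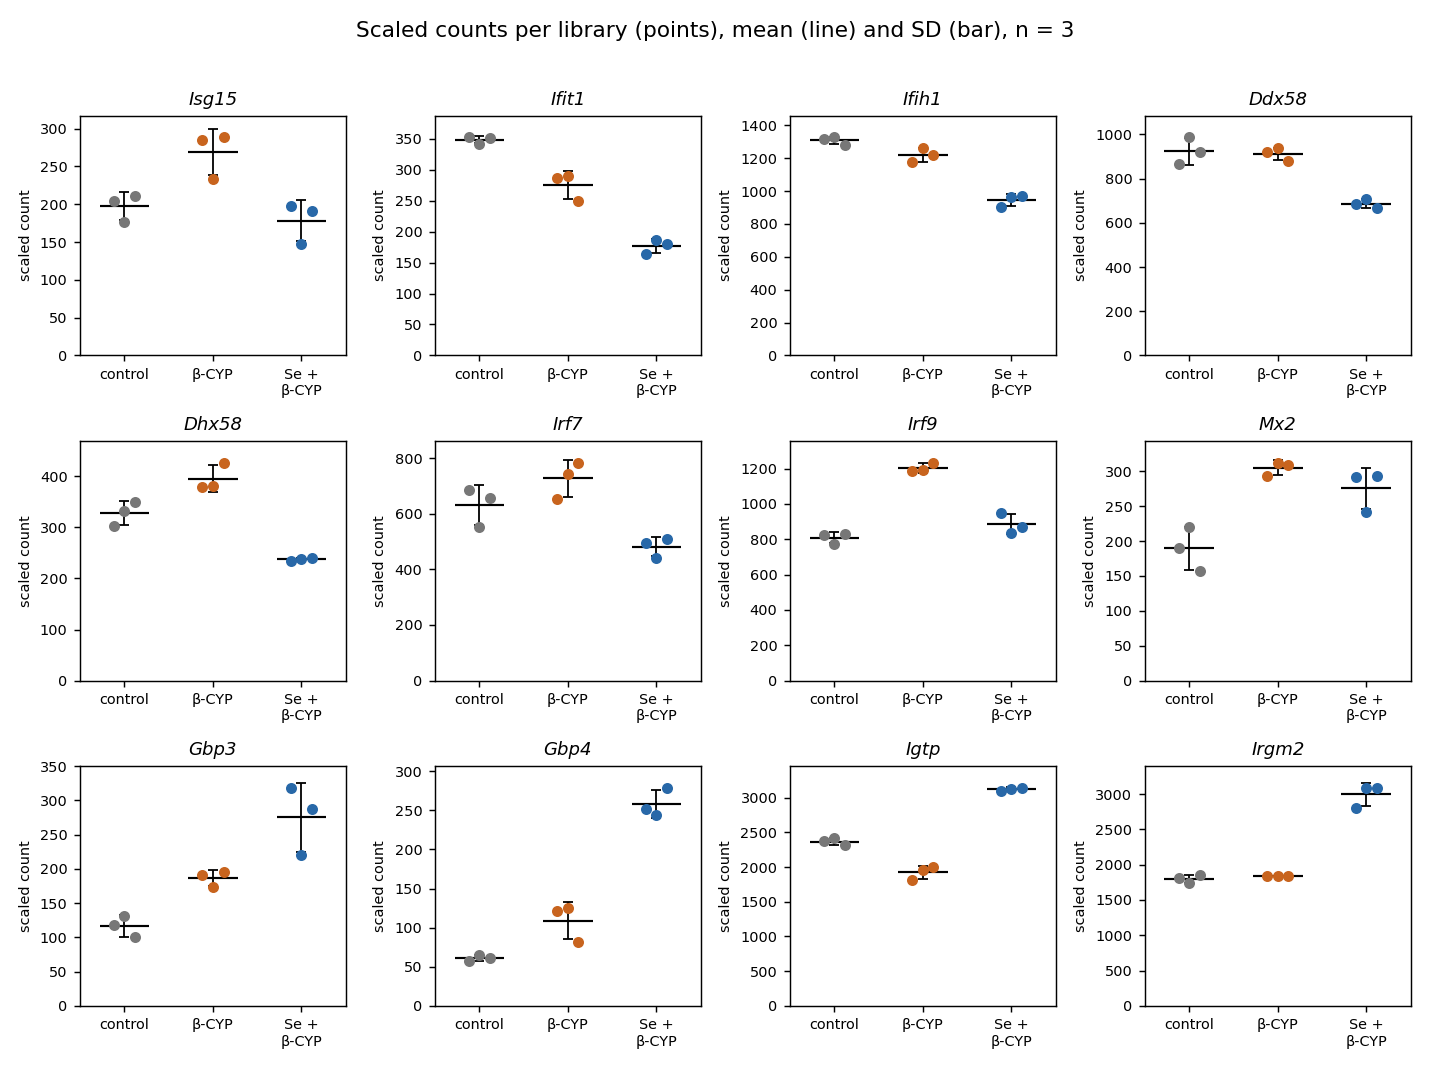
Scaled counts of 12 members in each of the 9 libraries (points), with the group mean and SD, linear axes from 0. Isg15, Irf9 and Dhx58 are highest with β-CYP alone, Ifit1 steps down across the 3 groups, and Gbp4, Igtp and Irgm2 are highest with selenite.

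The guanylate-binding proteins (GBPs) are large GTPases that coat and break pathogen vacuoles and feed inflammasomes, and the immunity-related GTPases (Irgm1, Irgm2, Igtp and Iigp1) act with them on the same membranes, the Irgm proteins and IGTP as regulators and IIGP1 as an effector. Promoter windows ran from 250 bases before to 50 bases after the annotated start, and 31 of the 44 members had one in the RefSeq table. The response element core, GAAANNGAAA, was found on either strand in 7 of the 7 GTPases with a window, in 13 of 24 type I-like members (54.2%) and in 3.99% of the 27025 genes in that table. The gamma-activated site, TTCNNNGAA, which may overlap other motifs, was found in 4 of the 7 GTPases (57.1%), in 6 of 24 type I-like members (25%) and in 9.55% of all genes. The stretches below are from the 6 GTPases with a window that were called higher from β-CYP to selenite, with Irf1 for a gamma-activated site without the response element core in the stretch shown (GRCm38.p6, plus strand, RefSeq). Capitals mark both motifs where they fall in the stretch shown. Gbp5 also has gamma-activated sites in its window, with first bases at -245 and -52 from the start, outside its stretch.
Gbp2, chr3:142620589-142620628: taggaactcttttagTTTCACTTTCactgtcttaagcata
Gbp3, chr3:142559984-142560029: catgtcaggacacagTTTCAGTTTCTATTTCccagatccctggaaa
Gbp5, chr3:142496754-142496793: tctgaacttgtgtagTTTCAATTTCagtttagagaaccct
Gbp7, chr3:142530215-142530307: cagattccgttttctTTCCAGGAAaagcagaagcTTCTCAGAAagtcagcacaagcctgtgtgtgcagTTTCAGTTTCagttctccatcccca
Igtp, chr11:58199496-58199546: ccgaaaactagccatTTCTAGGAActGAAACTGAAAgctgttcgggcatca
Irgm2, chr11:58214887-58214937: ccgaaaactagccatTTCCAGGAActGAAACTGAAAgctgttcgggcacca
Irf1, chr11:53769909-53769947: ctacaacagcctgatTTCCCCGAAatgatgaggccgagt
The Gbp2, Gbp3, Gbp5 and Gbp7 stretches each carry the core on the other strand, and Igtp and Irgm2 carry it as spelled. These are counts of letters in a window and do not show that a factor binds there.

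Gbp4 changed most of the 44 members. It was at 56.7, 64.4 and 61.7 scaled counts in controls, 121, 125 and 81.3 with β-CYP, and 252, 244 and 279 with selenite, with no overlap between any groups. It rose with β-CYP (0.80, SE 0.17, adjusted p = 0.0108) and again from β-CYP to selenite (1.26, SE 0.17, adjusted p = 0.00052), and stood 4.18-fold above control with selenite (2.06, SE 0.17, adjusted p = 1.37e-05). The β-CYP call was lost when only the 2 groups compared were fitted. Gbp3 was at 117, 132 and 101, then 191, 174 and 195, then 319, 220.5 and 287, again in 3 separate ranges. Its changes were 0.68 (SE 0.16, adjusted p = 0.0149), 0.54 (SE 0.16, adjusted p = 0.0309) and 1.23 for selenite against control (SE 0.16, adjusted p = 0.000252). The first was lost without control replicate 3 or β-CYP replicate 1 or 3 (0.58 to 0.66), and the second without any 1 β-CYP library or selenite replicate 1 or 3 (0.43 to 0.58). The second also ended with quantile normalization, no intensity trend, the fit of the 2 groups only and a replicate block. Gbp2 was at 171, 117 and 162, then 177, 191 and 240.3, then 322, 283 and 331. It did not pass with β-CYP (0.44, adjusted p = 0.119) and was higher with selenite than with β-CYP (0.63, SE 0.17, adjusted p = 0.0225) and than in controls (1.07, SE 0.17, adjusted p = 0.00101). The former was lost without β-CYP replicate 1 or 2 or selenite replicate 1 or 3 (0.54 to 0.60).

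Gbp5 and Gbp7 were level with control under β-CYP alone and higher with selenite. Gbp5, which promotes inflammasome assembly, was at 57.7, 39.3 and 43.4 in controls, 42.6, 42.9 and 49.9 with β-CYP, and 103, 91.3 and 109 with selenite. Gbp7 was at 426, 424 and 409, then 374, 424 and 433, then 618, 535 and 624. With β-CYP alone both changed by -0.04 and did not pass. From β-CYP to selenite Gbp5 rose by 1.15 (SE 0.19, adjusted p = 0.00186) and Gbp7 by 0.53 (SE 0.08, adjusted p = 0.00137), and against control by 1.11 (adjusted p = 0.00184) and 0.49 (adjusted p = 0.00168). Gbp6 passed in no comparison, although all 3 selenite libraries (488, 416 and 459) were above the β-CYP libraries (390.0, 340.0 and 401), with a log2 change of 0.27 (SE 0.09, adjusted p = 0.0529). Gbp6 shares 70.7% of its 50-base words with other genes, so its value may hold reads from its relatives. Gbp5, Gbp7 and Gbp3 are neighbours on the chromosome, as are Gbp4 and Gbp6 with Gbp8, Gbp9 and Gbp10.

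Igtp and Irgm2, also neighbours, rose with selenite and not with β-CYP alone. Igtp was at 2379, 2415 and 2311 scaled counts in controls, 1819, 1959 and 1999 with β-CYP, and 3089.8, 3129 and 3143 with selenite. Irgm2 was at 1805, 1741 and 1853, then 1843, 1834 and 1837, then 2804, 3090.0 and 3089. Igtp thus fell with β-CYP (-0.30, SE 0.04, adjusted p = 0.000875), and Irgm2 was level with control (0.03). From β-CYP to selenite each rose by 0.70 (Igtp SE 0.04, adjusted p = 1.62e-06, and Irgm2 SE 0.05, adjusted p = 3.14e-06), and both ended above control, by 0.40 (adjusted p = 6.93e-05) and 0.73 (adjusted p = 1.85e-06). The 51-base stretches of their promoters printed above differ at 2 bases and are equal at 49. Their transcripts share 11.8% (Igtp) and 7.77% (Irgm2) of 50-base words with other genes.

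Irgm1 and Iigp1 followed another pattern, above control in both dosed groups. Irgm1 was at 2339, 2216 and 2264 in controls, 2459, 2768 and 2835 with β-CYP, and 2807, 3120.5 and 3153 with selenite, with changes against control of 0.24 (SE 0.06, adjusted p = 0.029) and 0.41 (SE 0.06, adjusted p = 0.000851). The β-CYP call was lost without any 1 control library or β-CYP replicate 2 or 3 (0.20 to 0.26), and with equal totals. Iigp1 was at 10341, 9969 and 10304, then 11494, 11968 and 11932, then 12049.9, 11824 and 11848. Its changes against control were 0.21 with β-CYP (SE 0.03, adjusted p = 0.000384) and 0.22 with selenite (SE 0.03, adjusted p = 0.000133). Between the dosed groups neither gene passed (Irgm1 0.17, adjusted p = 0.0808, and Iigp1 0.01, adjusted p = 0.779).

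**Figure D3:**
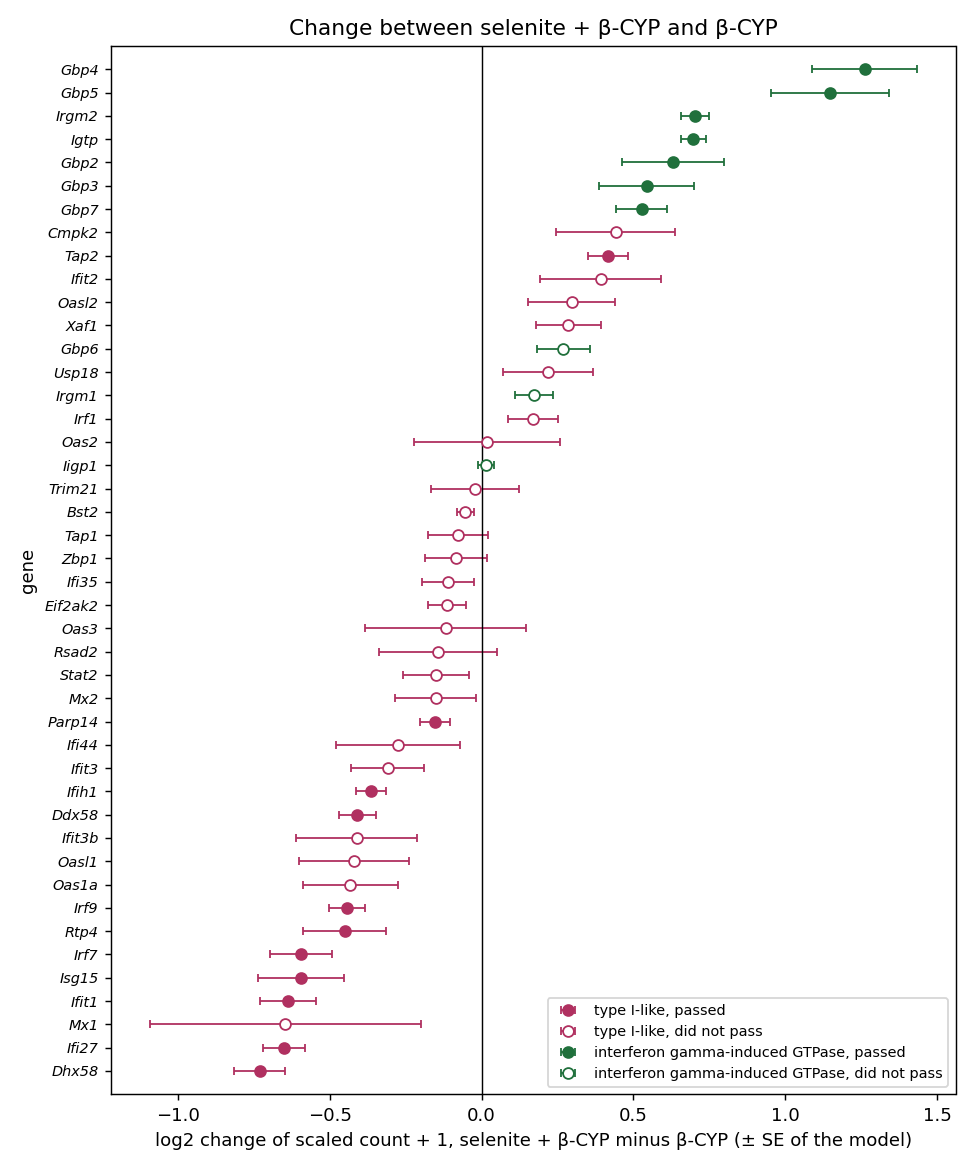
Log2 change from β-CYP to selenite with β-CYP for each of the 44 members, with bars for 1 SE and filled points for genes called at an adjusted p under 0.05. The 10 GTPases all lie at or above 0, from 0.01 to 1.26, and 26 of the 34 type I-like genes lie below 0. Of all 20145 genes tested, 10445 lay above 0. Among the members not called, 10 changed sign under at least 1 alternative setting of the analysis.

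The relatives of the GTPase members were examined as a list of 12 further genes, 11 of them in the table, and all 11 are named here. From β-CYP to selenite 6 were higher and 2 lower, against 11.6% and 12.3% of all genes tested. The T-cell-specific GTPases Tgtp1 and Tgtp2, and Gbp11, had larger log2 changes there than any of the 44 members. Tgtp1 was at 182, 157 and 159 scaled counts in controls, 257, 254 and 300.4 with β-CYP, and 1899, 2021 and 2008 with selenite (from β-CYP to selenite 2.87, SE 0.09, adjusted p = 1.53e-08). Tgtp2 was at 174, 175 and 163, then 283, 264 and 285, then 1648, 1674 and 1679 (2.58, SE 0.06, adjusted p = 3.52e-09). These 2 genes share 81.2% and 86.6% of their 50-base words with other genes, mostly each other, so they may count as a pair. Gbp11 was at 122, 90.6 and 149.7, then 48.9, 72.5 and 50.8, then 536, 465 and 482. It fell with β-CYP (-1.05, SE 0.21, adjusted p = 0.00641) and rose from β-CYP to selenite (3.10, SE 0.21, adjusted p = 3.25e-06). Gbp9 (0.79, adjusted p = 0.00176) and Gbp10 (0.49, adjusted p = 0.00708) also rose from β-CYP to selenite, as did Gm12250, from 119, 108 and 145 to 261, 278 and 209 (adjusted p = 0.00113). Gbp10 shares 84.1% of its 50-base words with other genes (73.3% with Gbp6), so its value may hold reads from them. F830016B08Rik, the neighbour of Iigp1, moved the other way, from 473, 478 and 440.0 with β-CYP to 197, 257 and 203 with selenite (-1.09, SE 0.10, adjusted p = 4.11e-05). Gm4951 fell by 0.29 on the log2 scale (adjusted p = 0.0012), a call lost with equal totals (-0.16). Gbp8 and Ifi47 did not pass, nor did Gvin1.

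**Figure D4:**
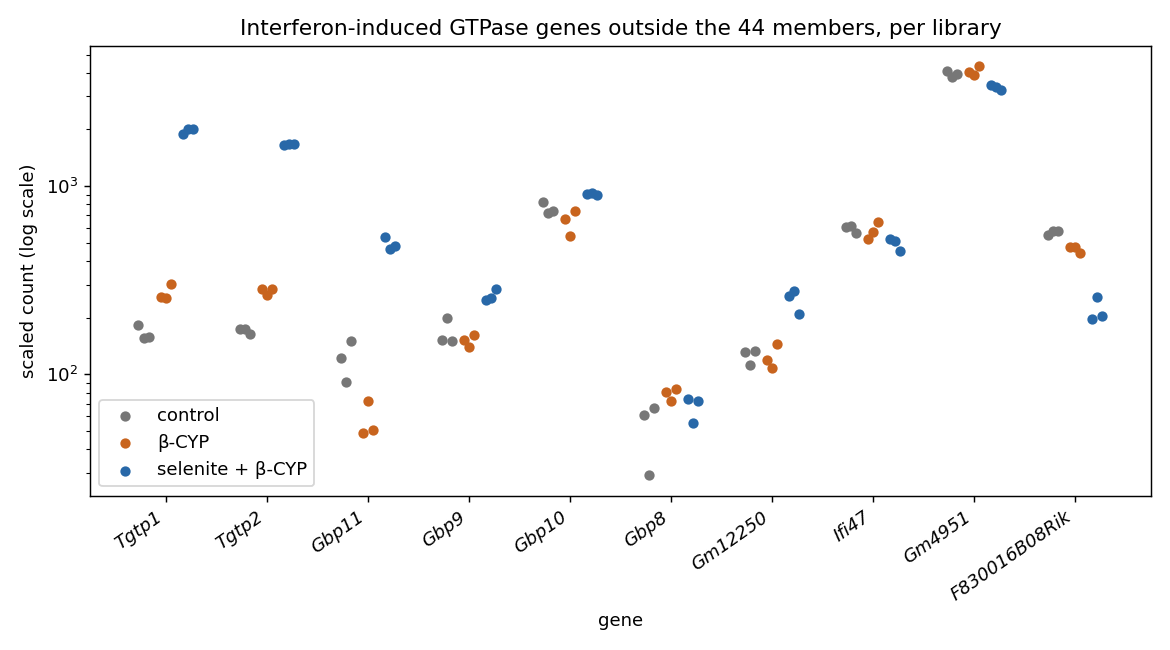
Scaled counts on a log axis of 10 GTPase genes related to the members, in each of the 9 libraries by group. Tgtp1, Tgtp2 and Gbp11 are highest with selenite (465 to 2021), and F830016B08Rik is lowest there (197 to 257).

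Ligands and receptors were examined as a further list of 55 pathway genes, of which 34 were in the table and 32 were tested. Of the 32, 6 rose and 1 fell with β-CYP, 3 rose and 4 fell from β-CYP to selenite, and 11 rose and 2 fell from control to selenite. Without control replicate 3 the second of these counts was 5 higher, and with equal totals it was 8. The background over all genes tested was 7.72% higher and 8.58% lower with β-CYP, and 11.6% and 12.3% from β-CYP to selenite. From control to selenite the background was 14.4% and 14.5%. None of the 18 type I ligand genes listed was among the 25781 genes given, so they were not tested. Ifng had 5.06 scaled counts in control replicate 1 and was listed at 0 in the other 8 libraries. The type I receptor genes Ifnar1 and Ifnar2 passed in no comparison. The interferon gamma receptor gene Ifngr2 was at 435, 411 and 387 in controls, 517, 433 and 449 with β-CYP, and 688, 629 and 558 with selenite. It was higher with selenite than with β-CYP (0.42, SE 0.10, adjusted p = 0.0119) and than in controls (0.60, SE 0.10, adjusted p = 0.00131). Ifngr1 was higher with selenite than in controls (0.46, SE 0.09, adjusted p = 0.00445). Of the receptor chains for interferon lambda, Il10rb was higher with selenite than with β-CYP (0.53, adjusted p = 0.0233), a call lost without β-CYP replicate 1 or 2 or selenite replicate 2 or 3 (0.43 to 0.55). Ifnlr1 was at 14.7, 13.8 and 14.4 with selenite and at 0, 3.02 and 0 in controls (adjusted p = 0.0156), a call lost without control replicate 1 or 3.

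Of the kinases below the receptors, Jak1 rose against control with β-CYP (0.26, adjusted p = 0.00091) and with selenite (0.15, adjusted p = 0.0105), the latter lost without the intensity trend, while Jak2 and Tyk2 passed in no comparison. The inhibitor Socs3, which is also induced by interleukin 6, was at 306, 268 and 262 in controls, 978, 939 and 1009 with β-CYP, and 603, 658 and 646 with selenite (1.81, -0.62 and 1.19, adjusted p = 1.79e-07, 0.000229 and 1.8e-06). Socs1, an inhibitor induced by interferon gamma, was low (0 to 22.1) and passed in no comparison, as did Ptpn11 and Pias1, and Ptpn6 rose from control to selenite (0.35, adjusted p = 0.00424).

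Of the genes that induce interferon, Myd88, the adaptor of most Toll-like receptors, was at 437, 399.6 and 389.7 in controls, 958, 845 and 869 with β-CYP, and 667, 745 and 673 with selenite. It rose with β-CYP (1.12, SE 0.08, adjusted p = 5.94e-06) and was lower with selenite than with β-CYP alone (-0.36, SE 0.08, adjusted p = 0.00722), the latter lost with equal totals (-0.23). Mavs, the adaptor below RIG-I and MDA5, was lower with selenite than with β-CYP (-0.17, adjusted p = 0.00183) and than in controls (-0.18, adjusted p = 0.00112), and neither call held with quantile normalization or equal totals (-0.08 to -0.04). Tmem173, which encodes STING, rose with β-CYP (0.67, adjusted p = 0.0128), and so did the kinase gene Tbk1 (0.43, adjusted p = 0.00212). Against control, Ticam1 (0.35, adjusted p = 0.0124), Tbk1 (0.26, adjusted p = 0.0169) and Ikbke (0.46, adjusted p = 0.0242) were higher with selenite, and leaving out 1 of 4 libraries ended the last 2 calls: control replicate 1 or 3 or selenite replicate 1 or 2 for Tbk1 (0.22 to 0.25), and control or selenite replicate 2 or 3 for Ikbke (0.36 to 0.49). Irf5 fell with β-CYP (-0.68, adjusted p = 0.0139), a call lost without control replicate 1 or 2 or β-CYP replicate 2 (-0.62 to -0.56). Il18, which drives interferon gamma production, was at 129, 105 and 161 with selenite against 231, 201 and 240.3 with β-CYP (-0.78, SE 0.17, adjusted p = 0.00886). Against control its fall (-0.66, adjusted p = 0.0177) was lost without control replicate 1 or 3 or selenite replicate 1 or 2 (-0.65 to -0.50), and with equal totals (-0.52).

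Genes outside the 44 that interferon gamma also induces were mixed in direction. Of 8 genes of the immunoproteasome and peptide loading, 4 rose and 1 fell with β-CYP, and 2 rose and 4 fell from β-CYP to selenite, where leaving out 1 library brought the counts to as few as 0 and 2. Shares over all genes tested were 7.72% higher and 8.58% lower with β-CYP, and 11.6% and 12.3% from β-CYP to selenite. Nlrc5, the activator of class I genes, was at 356, 394 and 401 in controls, 718, 677 and 614 with β-CYP, and 799, 774 and 821 with selenite. It rose against control by 0.80 (SE 0.08, adjusted p = 6.41e-05) and 1.06 (SE 0.08, adjusted p = 4.6e-06). Its rise between the dosed groups (0.26, adjusted p = 0.0357) was lost without β-CYP replicate 2 or 3 or any 1 selenite library (0.19 to 0.28). Tapbp, which bridges the peptide transporter to class I molecules, was at 2241, 2279.9 and 2089, then 2701, 2603 and 2783, then 1724, 1919.5 and 1731. It rose with β-CYP (0.29, SE 0.05, adjusted p = 0.00515) and was lower with selenite than with β-CYP (-0.59, SE 0.05, adjusted p = 3.48e-05), unlike Tap2 above. Psmb8, a catalytic subunit, rose with β-CYP (0.24, adjusted p = 0.0106). Psme1, a proteasome activator, rose with β-CYP (0.23, adjusted p = 0.0193) and was lower with selenite than with β-CYP (-0.32, adjusted p = 0.00199). The rise of Psme1 was lost without control replicate 3 or β-CYP replicate 1 or 2 (0.18 to 0.22), with equal totals, without the intensity trend and in the fit of the 2 groups only, and its fall with equal totals (-0.20).

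Of 7 chemokine and enzyme genes, 6 were tested, 3 were higher and 1 lower from β-CYP to selenite, and 5 were higher from control to selenite (3 without control replicate 3 or any 1 selenite library). The background was 11.6% higher and 12.3% lower in the former comparison, and 14.4% higher in the latter. Cxcl9, which draws activated T cells, was at 184, 146 and 165 in controls, 1046, 997 and 1032 with β-CYP, and 638, 804 and 730.2 with selenite, and its fall between the dosed groups (-0.51, SE 0.10, adjusted p = 0.0062) was lost with equal totals (-0.38). Cxcl10, a ligand of the same receptor, was at 71.8, 38.2 and 57.1, then 29.1, 53.1 and 26.8, then 118, 92.2 and 114. It rose from β-CYP to selenite (1.60, SE 0.31, adjusted p = 0.00411), and its rise from control to selenite (0.98, adjusted p = 0.0391) was lost without control replicate 2 or 3 or any 1 selenite library (0.74 to 1.09). The 2 chemokines thus had opposite signs from β-CYP to selenite. Ciita, the activator of class II genes, was at 17.2, 16.1 and 4.57 in controls, 19.8, 26.5 and 20.3 with β-CYP, and 91.1, 84.9 and 70.0 with selenite (from β-CYP to selenite 1.84, SE 0.43, adjusted p = 0.0121). Cd274, which encodes the checkpoint ligand PD-L1, rose from β-CYP to selenite by 1.06 (SE 0.22, adjusted p = 0.00606). Nos2, inducible nitric oxide synthase, was at 13.8, 12.0 and 14.4 with selenite and at 0, 5.03 and 0 in controls (adjusted p = 0.0428), a call lost without control replicate 1 or 3 or any 1 selenite library.

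A further list of 59 type I-like genes outside the members, 57 of them tested, had 14 higher and 2 lower with β-CYP. From β-CYP to selenite 4 were higher and 9 lower, and from control to selenite 14 were higher and 5 lower. Among all genes tested, 7.72% were higher and 8.58% lower with β-CYP, and 11.6% and 12.3% from β-CYP to selenite. From control to selenite these shares were 14.4% and 14.5%. The 14 higher with β-CYP became 7 without control replicate 1 or β-CYP replicate 3, and 8 without control replicate 2 or β-CYP replicate 1, while the 4 became 2 without β-CYP replicate 1. Ifi204, a DNA sensor, was at 89.0, 87.6 and 119 in controls, 172, 229.7 and 203 with β-CYP, and 84.7, 117 and 97.7 with selenite. Ifi204 rose with β-CYP (1.03, SE 0.18, adjusted p = 0.00354) and was lower with selenite than with β-CYP (-1.01, SE 0.18, adjusted p = 0.00281), and Slfn9 followed the same order (0.73, adjusted p = 0.0313 and -0.82, adjusted p = 0.013). The Slfn9 rise was lost without any 1 control library or β-CYP replicate 1 or 3 (0.64 to 0.80), and its fall without β-CYP replicate 3 (-0.73). Ly6a, which encodes Sca-1, was at 389.5, 443 and 571 in controls, 1883, 772 and 1765 with β-CYP, and 1524, 3726 and 3873 with selenite. Its rise from control to selenite was 2.60 (SE 0.41, adjusted p = 0.00103), and its rise with β-CYP (1.57, adjusted p = 0.0281) was lost without any 1 control library or β-CYP replicate 1 or 3 (1.34 to 1.72). The latter call also ended with voom weights, without the intensity trend and in the fit of the 2 groups only. Slfn2 rose against control with β-CYP (0.95, adjusted p = 0.0265) and with selenite (1.07, adjusted p = 0.00888), the former lost without control or β-CYP replicate 1 or 3 (0.82 to 0.89). Voom weights, no intensity trend, the fit of the 2 groups only and a replicate block also ended the former. Ifit1bl2, in the Ifit cluster, was listed at 0 in all 6 control and β-CYP libraries and had 3.68, 5.53 and 6.71 scaled counts with selenite. Ms4a4c was at 4.05, 5.03 and 4.57 in controls and 10.1, 16.6 and 21.1 with selenite (1.56, adjusted p = 0.0249), a call lost without control replicate 1 or 3 or selenite replicate 2 or 3 (1.34 to 1.56).

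**Figure D5:**
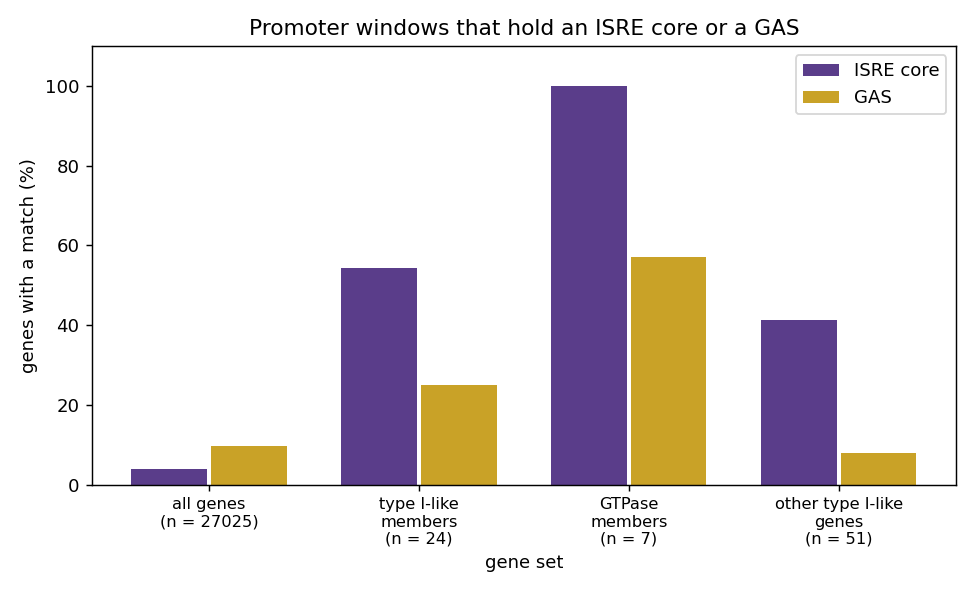
Percent of genes whose promoter window (300 bases) holds the response element core or the gamma-activated site, for all 27025 genes of the RefSeq table, 24 type I-like members, 7 GTPase members and 51 other type I-like genes. The response element core is in 54.2% of the type I-like members and all 7 GTPases against 3.99% of all genes.

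Markers of other cell types moved with the groups. The summed level of 13 macrophage markers was 16068 to 16690 scaled counts in controls, 16622 to 17033 with β-CYP and 20416 to 20535 with selenite, and 7 of the 13 rose and 0 fell from β-CYP to selenite (8 and 0 at an unadjusted limma p under 0.05, 7 and 0 with voom weights). With β-CYP against control, 4 of the 13 rose and 3 fell (7.72% and 8.58% of all genes tested), with a median log2 change of 0.015. Cd163, a scavenger receptor of macrophages, was at 451, 436 and 455, then 153, 142 and 161, then 868, 950.1 and 934, so its fall with β-CYP does not stand for the list. Marco, another such receptor, rose from β-CYP to selenite by 2.02 (SE 0.12, adjusted p = 1.62e-06). The 14 T and natural killer cell markers summed to 119 to 158 in controls, 107 to 117 with β-CYP and 216 to 299 with selenite, with 5 higher and 0 lower from β-CYP to selenite (8 and 0 at an unadjusted limma p under 0.05, 4 and 0 with voom weights) and Gzmb at 0 in the controls. The 10 neutrophil markers summed to 159 to 184, then 536 to 630, then 783 to 877, and the 7 B cell markers to 275 to 342, then 474 to 564, then 412 to 482. The 5 plasmacytoid dendritic cell markers summed to 21.2 to 40.3, 34.3 to 44.9 and 413 to 489, most of the last being Klk1 (419.8, 403 and 364), a gene that pancreas also expresses. The 18 pancreatic acinar markers summed to 983 to 1157 in controls, 1181 to 1240 with β-CYP and 43661 to 45205 with selenite, and all 17 that were tested rose from β-CYP to selenite. Sinusoidal endothelial markers (8 genes) summed to 11777 to 12004, 11283 to 11455 and 11382 to 11785, and stellate cell markers (7 genes) to 6109 to 6309, 6503 to 6815 and 6887 to 7228. Hepatocyte markers (9 genes) summed to 3.31e+06 to 3.46e+06, 3.97e+06 to 4.09e+06 and 3.39e+06 to 3.45e+06. From β-CYP to selenite 1 of 9 tested neutrophil, 1 of 7 B cell, 3 of 5 plasmacytoid dendritic cell, 3 of 8 endothelial and 3 of 7 stellate cell markers rose, 1 endothelial and 1 stellate cell marker fell, and of 9 hepatocyte markers 8 fell and 1 rose. Among all genes tested, 11.6% were higher and 12.3% lower in that comparison. With voom weights 2430 of 20145 genes were higher and 2494 lower, and the share at the unadjusted cut was not counted. In the same libraries the 34 type I-like members summed to 19372 to 19457, 21340 to 22026 and 19003 to 19082, and the 10 GTPases to 17524 to 18083, 18911 to 20003 and 22853 to 23322. The part that macrophage, T cell, natural killer cell, neutrophil, hepatocyte or pancreatic RNA had in the changes of the 44 members was not tested.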

How the data were processed

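The labels' protocols name a TruSeq RNA v2 kit, which does not mark strand, so reads of overlapping genes cannot be told apart, and BGISEQ500 protocols, whereas the design text names a HiSeq 3000. HISAT, Cufflinks and build mm9 are given in the submitters' processing notes, without versions. The authors deposited 1 table of log2 values for 25781 genes in 9 libraries. Undoing the log2, subtracting the pseudocount of 1 and multiplying by a per-library size factor gave a whole read within 0.02 for 100% of values. The values are thus log2(scaled count + 1), and whole reads were recovered (28630269 to 36029560 per library). Depth limits low genes most, and no library repeated another of its group (median chi-square between replicates 3.28 to 3.75 times counting noise). Libraries of different groups were not compared in this way.

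The deposited log2 values, not counts, were tested with limma 3.58.1 in R 4.3.3, with 1 model of 3 group means, an intensity trend, two-sided tests and Benjamini-Hochberg adjustment at 0.05 over the 20145 genes whose scaled counts averaged 1 or more. The fit was also run on simulated counts with a fixed spread and changes of 2-fold or more. That run does not bear on smaller changes, and its outcome is not given here. Libraries were grouped by the treatment in the labels. All 44 members are named. Named pathway genes are the ligands with a read, the receptors, kinases and inhibitors, and the induction genes called anywhere, except that 1 gene under the rule is not reported here. Of the other interferon-stimulated genes, up to 3 called genes per role and comparison with the largest change are named. The remaining related GTPases and the macrophage genes named were chosen after their values were seen. The members and lists were chosen with earlier results of these data known. Alternatives covered the pseudocount (0.5 and 10), the minimum level (none and 10), 4 other scalings, the trend, voom weights, 2-group fits, a replicate block and leaving out each library. Promoters are RefSeq sequences on GRCm38.p6. No coordinate was converted. Transcript words of 50 bases shared between genes came from the GENCODE transcripts of the reference, and promoters of 13 members were not analysed here.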

Additional observations from a re-analysis of the deposited data

How the results depend on the processing

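Of the 12, 18 and 24 members called for β-CYP against control, selenite against β-CYP and selenite against control, 6, 13 and 19 were called under every alternative, and 10, 6 and 7 of the members not called were called under at least 1. Scaling to equal totals moved most: type I-like genes lower with β-CYP went from 1 to 0, type I-like genes higher from β-CYP to selenite from 1 to 2, and type I-like genes lower from control to selenite from 9 to 4, and Bst2 turned from -0.12 to 0.019 in the last comparison. Fitting only the 2 groups compared took the GTPases higher with β-CYP from 4 to 2. With the replicate block, type I-like genes lower with β-CYP went from 1 to 0, type I-like genes lower from β-CYP to selenite from 10 to 8 and GTPases higher from 7 to 6. Deviations of same-numbered libraries were little correlated across genes (-0.04 to 0.07). Such a correlation cannot show whether they shared a day or batch that acted on some genes, and the labels do not say. Leaving out 1 library gave, with β-CYP, 5 to 8 type I-like genes higher, 0 to 1 lower and 2 to 4 GTPases higher. From β-CYP to selenite it gave 7 to 11 type I-like genes lower and 5 to 8 GTPases higher, and from control to selenite 6 to 7 type I-like genes higher, 7 to 9 lower and 9 GTPases higher. The cause of these shifts was not tested. With 3 libraries a group, small changes rest on few degrees of freedom, and genes with few reads such as Mx1, Socs1 and Nos2 are imprecise.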

Other observations

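In 3 genes, chosen after their values were seen, 1 library stood far from the other 2 of its group. Gvin1, a large interferon-inducible GTPase gene, was at 242, 243 and 277 scaled counts in controls, 286, 2.04 and 303 with β-CYP, and 889, 938 and 927 with selenite. It passed in no comparison, and 99.2% of its 50-base words occur in other genes. Trim25, a ligase that activates RIG-I, was at 2746, 2554 and 2753 in controls, 3025, 2978 and 3009 with β-CYP, and 1387, 3252 and 3318 with selenite, and also passed in no comparison. Ly6a had 1 lower library in each dosed group, 772 against 1883 and 1765 with β-CYP and 1524 against 3726 and 3873 with selenite.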
